A study of Drosophila melanogaster with 12 samples.

Results

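Among 17737 counted genes, in heads of Drosophila melanogaster adults that had newly eclosed, 53 stood lower in every library from Nab2 null flies than in any wild-type library, and by a set margin. The highest of the 6 null libraries had to reach at most 66.7% of the lowest of the 6 wild-type libraries in the authors' normalized counts, and the wild-type mean had to be at least 20. The mean alone left 10181 genes, and in 6.14% of those every null library lay below every wild-type library by any margin. Both conditions were met by 59, of which 6 were set aside by name: Nab2 itself, FASN2, Cht4, Cpr50Cb, Cpr67Fb and snoRNA:Psi28S-3316a. The 53 genes were thus chosen by their normalized counts in all 12 libraries, and the separation of null from wild type is described here without a test. The 4 groups, each of 3 libraries from pools of 60 heads, were females of genotype Nab2ex3 (Nab2 null), females carrying Nab2pex41, which the labels call wild type, and males of the same 2 genotypes.

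Nab2 is a zinc finger protein that binds polyadenosine RNA and is known to limit poly(A) tail length. In flies its loss is known to impair neuronal function and behaviour. The lowered genes had no single function by name. They included cytochrome P450 enzymes, which oxidise toxins, hormones and fatty acids; the clotting protein gene Hml of hemocytes, the insect blood cells; chemosensory genes; metabolic enzymes; and noncoding RNAs and pseudogenes.

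The libraries held 23648813 to 30751922 counts assigned to genes. Nab2 stood at 12.2 to 85.0 normalized counts in null libraries, against 1508 to 1680.4 in wild-type libraries. Replicate counts differed most for null female library 1. Without that library the same rule gave 60 genes. All 53 had to be among them, since leaving out a null library can only ease the rule. As these are whole heads, fewer cells of a type and less RNA per cell cannot be told apart. The labelled tissue held its markers, with all 6 tested photoreceptor markers summing to 36714 to 48189 CPM in null females, 32915 to 37931 CPM in null males and 29204 to 33184 CPM in wild type. The 6 fat body markers summed to 15400.2 to 23034 CPM in null females, against 3417 to 4985 CPM in wild-type females. In null males they summed to 3671 to 6939 CPM, against 2275 to 3607 CPM in wild-type males. At an edgeR adjusted p under 0.05, 5 of the 6 were higher in females and 2, Lsp2 and FASN1, in males. Over all genes those shares were 18.2% and 4.89%. In males Yp1 and Yp2 changed by -1.62 and -0.92 (edgeR adjusted p 0.117 and 0.181), and apolpp did not pass (edgeR adjusted p 0.242). Sums of some other lists were lower in the null, though a sum mostly follows its most abundant genes. The oenocyte list is a loose one, since its PPO2 and Desi are not specific to oenocytes. Its 5 genes found summed to 232 to 281 CPM in null females, against 286 to 333 CPM in wild-type females. In null males they summed to 185 to 243 CPM, against 247 to 298 CPM in wild-type males. Sums were also lower without overlap in null females for epidermis and cuticle (732 to 978 CPM, against 1115 to 1419 CPM in wild-type females), muscle (6714 to 9951 CPM, against 10336 to 12298 CPM) and neurons (1159 to 1589.7 CPM, against 1715 to 1808 CPM). In males the null and wild-type ranges of those 3 lists overlapped. At an edgeR adjusted p under 0.05, 1 gene of the oenocyte list and 2 epidermis and cuticle, 0 muscle and 1 neuron marker were lower in females. Over all genes this share was 13.6%. TpnC41C of muscle was higher in females (1.11, SE 0.17, edgeR adjusted p 8.92e-04). In males 1 gene of the oenocyte list and 1 epidermis and cuticle marker were lower, where the share over all genes was 5.03%. The gene of the oenocyte list was Desi in both sexes (edgeR adjusted p 9.37e-04 in females and 0.0370 in males). The most abundant gene of that list, bond, did not pass in females or males (edgeR adjusted p 0.0978 and 0.0769). Cyp4g1, PPO2 and FarO did not pass either, and FarO lay above 0 (0.61 in females and 1.09 in males). The part of such shifts in the results was not tested.

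The 53 genes stood at a median of 22.9% of the wild-type mean in null females (range 0.668% to 55.0%) and of 24.2% in null males (range 2.99% to 48.3%). The lowest shares rest on few reads, since CG14645 and CG3906 had at most 3 raw counts in every null library. In 25 genes the null mean was under 25% of the wild-type mean in both sexes, and in 3 it was under 10%. Wild-type means spanned 20.4 to 8694 normalized counts with a median of 121, and 30 of the 53 averaged at least 100. In edgeR's quasi-likelihood fit over 11223 genes, all 53 passed the filter on low counts. All 53 were called lower at an adjusted p under 0.05 in females, where 13.6% of all genes were called lower, and all 53 in males, where the share was 5.03%. The same was true of all 53 in both comparisons of the authors' deposited table, with background shares of 14.4% and 5.86%. Over all genes, 3.64% were called lower in both sexes. These counts restate the rule, since it used the same contrasts.

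**Figure D1:**
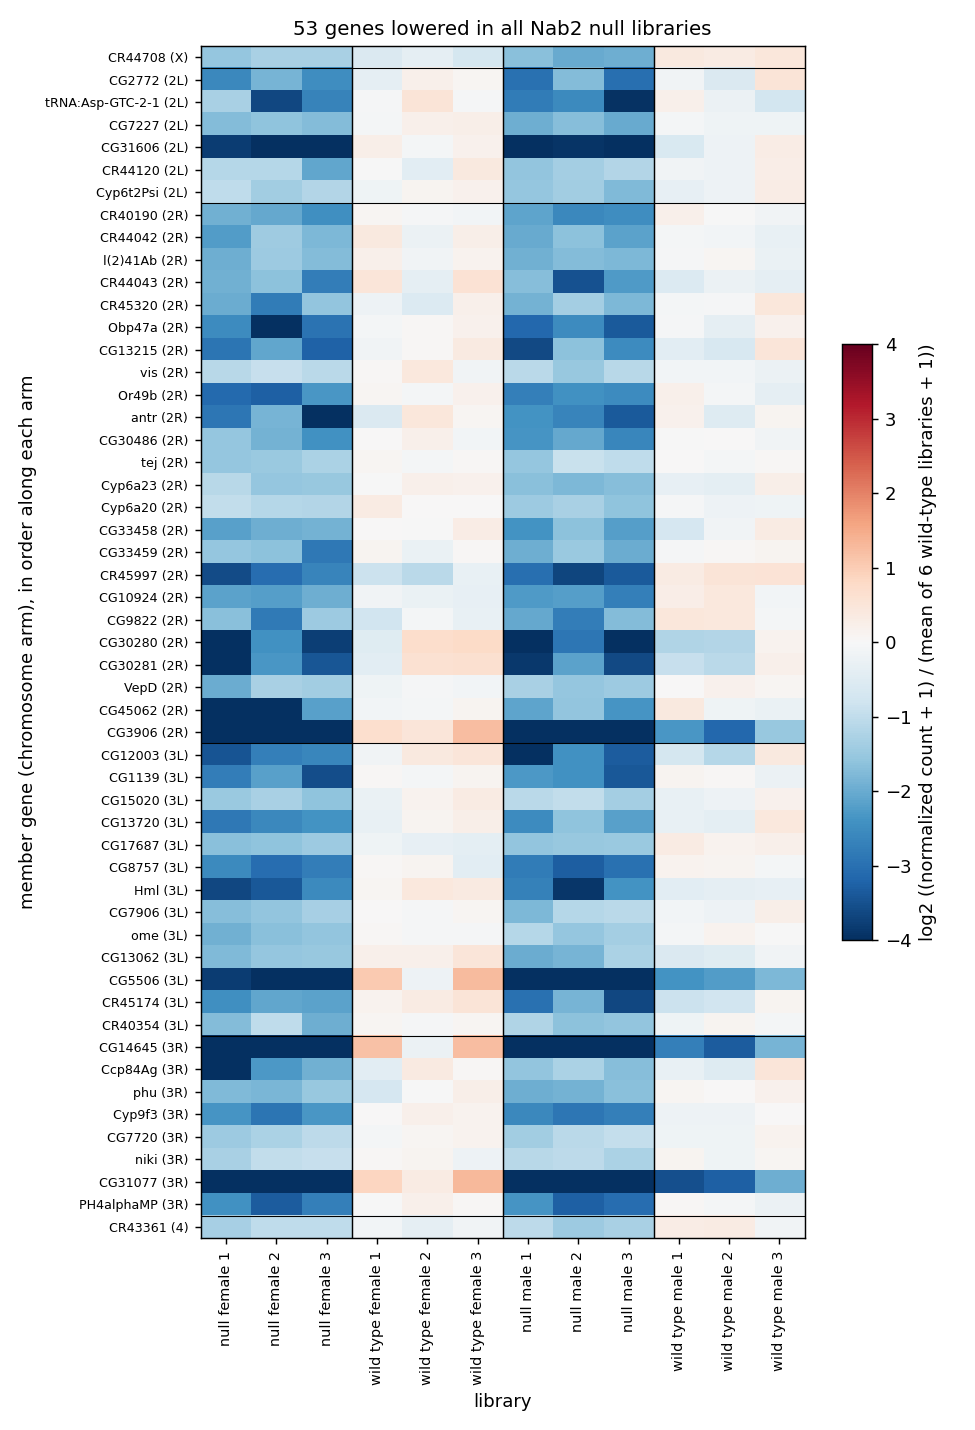
Level of each of the 53 genes (vertical axis, with its chromosome arm) in each of the 12 libraries (horizontal axis), as the log2 ratio to the mean of the 6 wild-type libraries after adding 1 normalized count; the colour scale stops at -4 and 4. Every gene is bluer in each of the 6 null libraries than in its lowest wild-type library, and wild-type males are also pale blue to blue for CG31077, CG14645, CG5506 and CG3906.

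At the limit of the rule, tRNA:Asp-GTC-2-1 was the last gene inside, with a highest null value of 19.4 against a lowest wild-type value of 29.2 normalized counts (66.3%), preceded by CR44708 (66.1%) and CR43361 (63.9%). The first genes outside were Def (66.7%), which encodes the antimicrobial peptide Defensin, CG8745 (67.5%) and CG34203 (68.8%). The limit therefore lies within a run of closely spaced values.

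The widest gap was in CG31606, a short gene on arm 2L (2L:8147611-8148356 in the BDGP6.54 annotation, the build behind all coordinates here). Its normalized counts were 34.2, 29.2 and 25.4 in null females, against 576, 466 and 549 in wild-type females. They were 15.5, 31.1 and 16.6 in null males, against 321, 422 and 593 in wild-type males. The highest null library thus reached 10.7% of the lowest wild-type library, and the fitted change, null over wild type on the log2 scale, came to -4.15 (SE 0.27) in females and -4.41 (SE 0.28) in males. PH4alphaMP, which encodes an alpha subunit of prolyl 4-hydroxylase, an enzyme that modifies collagen-like proteins, had 16.0, 8.07 and 12.7 in null females, against 89.4, 105 and 93.0 in wild-type females. Its male values were 16.6, 8.57 and 9.94 in null males, against 93.0, 84.7 and 76.2 in wild-type males, and the log2 changes were -2.94 (SE 0.25) in females and -2.84 (SE 0.25) in males. The groups lie far apart in both genes, and the sexes within a genotype overlap. CG1139, currently named acs, stood at 5.90 ± 3.08 in null females, against 45.1 ± 3.10 in wild-type females, and at 6.37 ± 2.67 in null males, against 43.8 ± 5.85 in wild-type males (SD, n = 3 each).

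A pair of chemosensory genes were among the 12 with the widest gaps. Obp47a encodes an odorant-binding protein, a secreted carrier in the fluid around sensory neurons. Its normalized counts were 14.8, 3.02 and 10.7 in null females, against 84.8, 93.4 and 101 in wild-type females. They were 9.33, 14.99 and 7.73 in null males, against 86.2, 70.0 and 102 in wild-type males. Or49b encodes an odorant receptor of olfactory neurons. It had 6.84, 6.05 and 12.7 in null females, against 70.4, 63.0 and 76.4 in wild-type females. The male values were 9.33, 11.8 and 11.05 in null males, against 77.5, 63.5 and 52.3 in wild-type males. No null library of either gene came near the wild-type range, and log2 changes were -3.27 (SE 0.35) in females and -3.001 (SE 0.34) in males for Obp47a and -2.98 (SE 0.27) in females and -2.58 (SE 0.26) in males for Or49b. Of 46 tested genes for odorant-binding and chemosensory proteins, which hold Obp47a but no receptors, 3 were called lower and 14 higher in null females, and 5 lower and 4 higher in null males, with median log2 changes of 0.06 and -0.27. The medians over all tested genes were 0.0072 and -0.0048. Of all tested genes, 13.6% were called lower and 18.2% higher in females, and 5.03% and 4.89% in males.

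**Figure D2:**
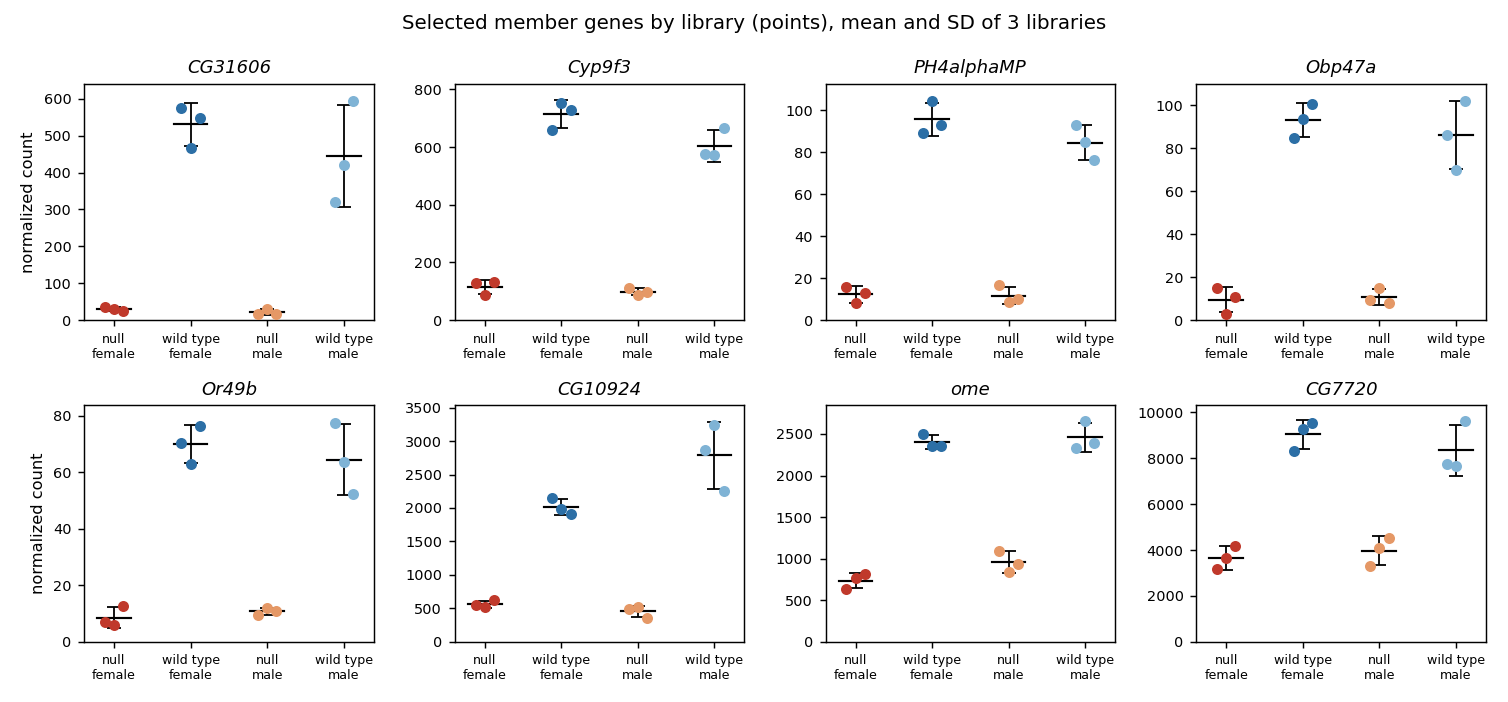
Normalized counts (vertical axis, from 0) of 8 of the 53 genes in null females, wild-type females, null males and wild-type males; points are libraries, bars the mean and SD of 3. All null points lie below all wild-type points in each panel, with wild-type means between 67.2 for Or49b and 8694 for CG7720.

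Per kilobase of exon, the highest wild-type levels among the 53 genes belonged to Cyp6a20 (3082 normalized counts per kb), CG7720 (2666) and Cyp6a23 (1421). On this scale the null means were 1285, 1169 and 488. The order of Cyp6a20 and CG7720 also held in the null. CG7720 had normalized counts of 3159, 3635 and 4184 in null females, against 8312, 9271 and 9529 in wild-type females. Its male values were 3285, 4092 and 4526 in null males, against 7744, 7674 and 9637 in wild-type males. Its log2 changes of -1.28 (SE 0.14) in females and -1.08 (SE 0.14) in males were among the smaller of the 53. CG10924, currently named Pepck2, encodes a phosphoenolpyruvate carboxykinase, the enzyme that starts gluconeogenesis from oxaloacetate. It had 545, 515 and 619 in null females, against 2155, 1979 and 1916 in wild-type females. The male values were 493, 516 and 361 in null males, against 2868, 3238 and 2249 in wild-type males, and the log2 changes -1.83 (SE 0.15) in females and -2.62 (SE 0.16) in males. ome encodes a dipeptidyl peptidase, which removes pairs of residues from the ends of peptides. It had 635, 764 and 809 in null females, against 2500.3, 2357 and 2353 in wild-type females. Its male values were 1096, 838 and 941 in null males, against 2328, 2659.7 and 2397 in wild-type males, and the log2 changes -1.69 (SE 0.11) in females and -1.37 (SE 0.11) in males.

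Hml encodes Hemolectin, a secreted clotting protein used as a marker of plasmatocytes, the phagocytic hemocytes. Its normalized counts were 346, 407 and 735 in null females, against 4541, 5781 and 5509.6 in wild-type females. They were 663, 289 and 818 in null males, against 3235, 3408 and 3481 in wild-type males. The null mean was 9.40% of wild type in females and 17.5% in males, with log2 changes of -3.39 (SE 0.34) in females and -2.53 (SE 0.33) in males. The other 5 hemocyte markers did not share this direction. NimC1 and eater, receptors for phagocytosis, both rose in females (0.63, SE 0.11, edgeR adjusted p 0.00185 for NimC1, and 0.87, SE 0.13, edgeR adjusted p 7.05e-04 for eater, on the log2 scale). In males eater rose (0.50, SE 0.13, edgeR adjusted p 0.0307), while NimC1 changed by 0.20, SE 0.11, edgeR adjusted p 0.307. PPO1, a prophenoloxidase of crystal cells, rose in females (1.24, SE 0.21, edgeR adjusted p 0.00147) and males (2.79, SE 0.25, edgeR adjusted p 4.36e-05). PPO2, a further prophenoloxidase gene kept in the oenocyte list and so outside these 5, did not rise. It changed by -0.095 in females and -0.25 in males (edgeR adjusted p 0.747 and 0.546).

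The surface protein gene He rose in females (1.05, SE 0.23, edgeR adjusted p 0.00546) and stood at 0.93 (edgeR adjusted p 0.0531) in males. For srp, a GATA factor of hemocytes and fat body, the changes were 0.20 and 0.18 (edgeR adjusted p 0.296 and 0.519). Thus 4 of the 5 were called higher and 0 lower in females, where 18.2% of all genes were called higher, and 2 were called higher and 0 lower in males, where the share was 4.89%. Summed over these 5 genes, the level was 142 ± 16.3 CPM in null females, against 89.03 ± 3.79 in wild-type females, and 84.5 ± 4.36 in null males, against 66.3 ± 3.23 in wild-type males (SD, n = 3 each). With Hml included the sum was lower in the null in both sexes, so that the sign of the summed level depends on Hml. The sum without Hml was computed after the data had been seen.

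**Figure D3:**
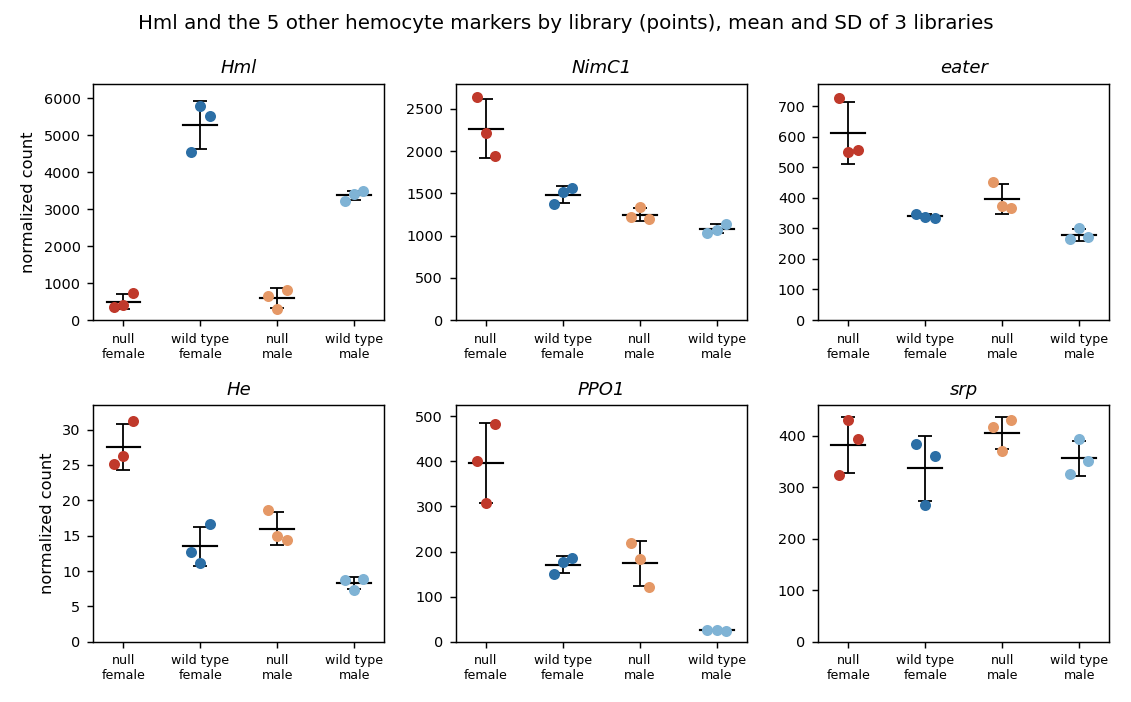
Normalized counts (vertical axis, from 0) of Hml and of 5 other hemocyte markers in the 4 groups of 3 libraries; points are libraries, bars the mean and SD. Hml lies between 289 and 818 in the null libraries and between 3235 and 5781 in the wild-type libraries, while the null means of the other 5 genes lie above the wild-type means of the same sex.

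The genes beside Hml on arm 3L included 2 that stood lower in the null. CG8757, 3L:13840197-13842240, is a member itself, with normalized counts of 42.2, 29.2 and 36.1 in null females, against 260.0, 269 and 187 in wild-type females. It had 35.2, 24.6 and 30.9 in null males, against 276, 271 and 235 in wild-type males. CG8745, annotated just beyond the end of Hml (3L:13846054-13860001), was one of the genes closest outside the limit. It had 3018, 3479.5 and 2779 in null females, against 5269.5, 5377 and 5821 in wild-type females. It fell in females (-0.81, SE 0.10, edgeR adjusted p 2.39e-04) and in males (-0.79, SE 0.10, edgeR adjusted p 5.13e-04). Between CG8757 and Hml, the weakly expressed Tsp68C changed by -0.92 and -0.77 (edgeR adjusted p 0.0640 and 0.264). The next gene past CG8745, dysc, changed by 0.02 and 0.10 (edgeR adjusted p 0.916 and 0.719).

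Cytochrome P450 genes gave 4 of the 53. Cyp9f3 on arm 3R showed the widest gap of them, with 128, 86.7 and 132 in null females, against 661, 754 and 729 in wild-type females. It had 109.8, 87.8 and 98.3 in null males, against 575, 571 and 667 in wild-type males, and its log2 changes were -2.61 (SE 0.15) in females and -2.62 (SE 0.15) in males. Cyp6a20, a P450 gene linked to male aggression, had 2810.2, 2503 and 2454 in null females, against 7035, 5559.8 and 5599 in wild-type females. Its male values were 2046, 2271 and 1802 in null males, against 5422, 4809 and 4878 in wild-type males, with log2 changes of -1.21 (SE 0.12) in females and -1.31 (SE 0.12) in males. Cyp6a23 had 1163, 855 and 879 in null females, against 2486, 2892 and 2804 in wild-type females. Its male values were 782, 718 and 763 in null males, against 2003, 1914 and 2912 in wild-type males, with log2 changes of -1.48 (SE 0.17) in females and -1.60 (SE 0.17) in males. The pseudogene Cyp6t2Psi averaged 114 ± 14.5 in null females, against 269 ± 30.7 in wild-type females, and 87.97 ± 11.7 in null males, against 253 ± 60.8 in wild-type males (SD, n = 3 each). Genes of the family were called in both directions. Of 77 tested P450 genes, 12 were called lower and 26 higher in null females, and 8 lower and 11 higher in null males. Over all genes, 13.6% were called lower and 18.2% higher in females, and 5.03% and 4.89% in males. The median log2 change was 0.21 in females and 0.03 in males.

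Cyp6a23 and Cyp6a20 belong to a run of Cyp6a genes on arm 2R that did not move as 1. In order along the arm, Cyp6a17, Cyp6a23, Cyp6a9 and Cyp6a20 alternated in direction, but the genes on either side did not continue this. Cyp6a22, beside Cyp6a17, also rose in females (0.99, SE 0.18, edgeR adjusted p 0.00271) and changed by 0.33, SE 0.18, edgeR adjusted p 0.320 in males. Cyp6a21 and Cyp6a8, past Cyp6a20, were not called in females (0.25 and 0.21, edgeR adjusted p 0.240 and 0.408) or in males (-0.11 and 0.38, edgeR adjusted p 0.755 and 0.244). Cyp6a17 rose in females (2.19, SE 0.17, edgeR adjusted p 1.09e-05) and males (2.14, SE 0.17, edgeR adjusted p 1.22e-05), and Cyp6a9 rose in females (1.12, SE 0.14, edgeR adjusted p 2.76e-04) and males (0.79, SE 0.14, edgeR adjusted p 0.00477). Cyp6a17 had normalized counts of 3814, 2889.7 and 3487 in null females, against 605, 845 and 815 in wild-type females. Cyp6a17 and Cyp6a23 are known as closely similar copies, so the assignment of reads to one or the other is uncertain. Their sum was 4363 ± 616 in null females, against 3482 ± 344 in wild-type females, and 3868 ± 381 in null males, against 2975 ± 497 in wild-type males (SD, n = 3 each). In the summed level the null was thus not lower. Cyp6a9 and Cyp6a20 together stayed lower, at 5089.8 ± 536 in null females, against 7228 ± 1059.6 in wild-type females, and 3969 ± 206 in null males, against 6148 ± 437 in wild-type males (SD, n = 3 each).

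The homeodomain genes vis and achi are another known pair of neighbouring, closely similar copies. The member vis had normalized counts of 46.8, 54.4 and 48.8 in null females, against 107, 139 and 93.0 in wild-type females. It had 48.7, 35.3 and 47.5 in null males, against 95.9, 96.1 and 86.8 in wild-type males. By contrast achi rose in females (0.67, SE 0.12, edgeR adjusted p 0.00205) and in males (0.48, SE 0.12, edgeR adjusted p 0.0261). Their sum was 374 ± 33.3 in null females, against 319 ± 36.6 in wild-type females, and 304 ± 26.2 in null males, against 278 ± 15.3 in wild-type males (SD, n = 3 each). The lower level of vis is therefore uncertain as a change of that copy alone.

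**Figure D4:**
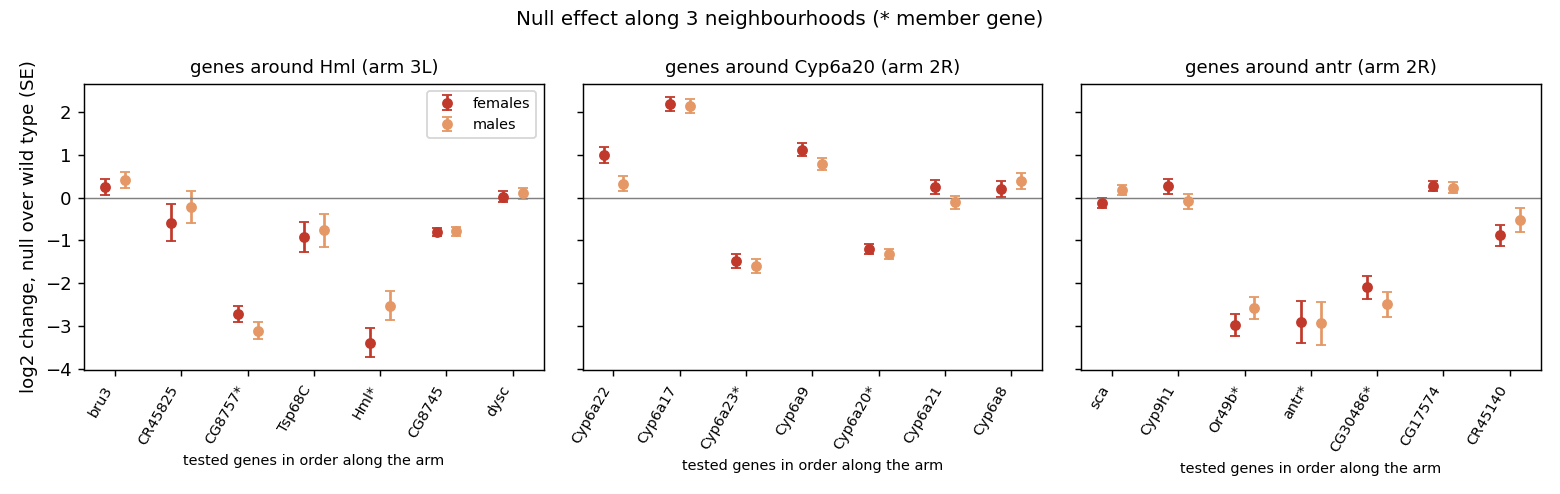
Fitted log2 change of null over wild type (vertical axis, points with SE; dark for females, light for males) of the tested genes around Hml, Cyp6a20 and antr in their order along the arm (horizontal axis), with members starred. Starred genes lie below 0 in each panel, and Cyp6a17 and Cyp6a9 lie above 0.

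By chromosome arm, 24 of the 53 genes lay on 2R (45.3%), 13 on 3L, 8 on 3R, 6 on 2L, and 1 each on X and the fourth chromosome. Of the 10145 annotated genes with a wild-type mean of at least 20, 21.1% lay on 2R and 16.2% on X, which gave 1.89% of the members. Genes within 50 kb of one another were joined, since neighbours are not independent, which left 45 neighbourhoods, 17 of them on 2R (37.8%). In 6 neighbourhoods, 5 on 2R and 1 on 3L, lay 14 of the members. Nab2 itself lies on 3R (3R:24314660-24318419), and the closest member was niki, 0.504 Mb away. No test was made of these shares.

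In the neighbourhood of Or49b, that gene, antr and CG30486 followed each other within 6.33 kb. antr, known from sperm storage after mating, had normalized counts of 3.42, 8.07 and 0.976 in null females, against 20.8, 43.7 and 33.2 in wild-type females. It had 5.18, 4.28 and 2.21 in null males, against 35.9, 21.99 and 34.5 in wild-type males. The tested genes next to this trio were Cyp9h1, with log2 changes of 0.26 and -0.09 (edgeR adjusted p 0.256 and 0.825), and CG17574, with 0.26 and 0.23 (edgeR adjusted p 0.108 and 0.264). Neither passed. The adjacent CG30280 and CG30281 were lower together. Of the tested genes around them, Vrp1 and GM130 were not called in either sex. CG6613 fell in females (-0.54, SE 0.085, edgeR adjusted p 0.00104) and males (-0.46, SE 0.085, edgeR adjusted p 0.00533). mei-S332 was called lower in males (-0.39, SE 0.11, edgeR adjusted p 0.0398) and not in females (-0.20, SE 0.11, edgeR adjusted p 0.169). CG30281 had 24.0, 184 and 84.9 in null females, against 694, 1406 and 1445 in wild-type females. Its male values were 63.2, 209.9 and 74.0 in null males, against 490.4, 439.8 and 1070.0 in wild-type males, and its libraries differed widely within each genotype. CG33458 and CG33459 also lay side by side. Both were lower in every null library, with means of 39.9 and 14.1 in null females, against 174 and 54.3 in wild-type females. The means were 38.6 and 15.3 in null males, against 152 and 56.8 in wild-type males. Beside them, S-Lap8 was called lower in males (-3.27, SE 0.81, edgeR adjusted p 0.0421) and had means of 0 in females. Parp16 rose in females (1.62, SE 0.27, edgeR adjusted p 0.00162) and males (1.49, SE 0.26, edgeR adjusted p 0.00365). CheB53a and Sema2a were not called in either sex.

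Near the centromere end of 2R, l(2)41Ab and the noncoding RNAs CR44042 and CR44043 lay within 95.8 kb, and the pseudogene CR40190 lay further towards the start of the arm. l(2)41Ab had 305, 429.5 and 350.5 in null females, against 1359, 1072 and 1292 in wild-type females. It had 308, 357 and 336 in null males, against 1130.0, 1239 and 974 in wild-type males. Its tested neighbours outside the group, Yeti and Maf1, changed by 0.15 and 0.07 in females (edgeR adjusted p 0.259 and 0.588). Over all members, the nearest tested genes on either side that were not members numbered 92. In null females 18 of these were called lower (19.6%, against 13.6% of all genes) and 13 higher (14.1%, against 18.2%). In null males 15 were called lower (16.3%, against 5.03%) and 10 higher (10.9%, against 4.89%). Their median log2 changes were -0.13 in females and -0.06 in males.

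The members comprised 41 protein-coding genes, 7 noncoding RNA genes, 4 pseudogenes and 1 tRNA gene. Protein-coding genes made up 77.4% of the members and 94.0% of the genes with a wild-type mean of at least 20; noncoding RNAs made up 13.2% and 3.31%, and pseudogenes 7.55% and 0.325%. The median exonic length was 1463 bases, against 2060 in the larger set. Exons of 10 members overlapped a counted gene on the other strand. These were CG14645, PH4alphaMP, CG8757, CG5506, CG30486, CG45062, CG7227, VepD, CG30281 and CR43361. Exons of VepD also overlapped a counted gene on its own strand. The libraries were stranded, but the strand setting of the counting is not given in the sources used here, so levels of such genes are uncertain. CR40190 had normalized counts of 45.6, 42.3 and 31.2 in null females, against 186, 172 and 165 in wild-type females. It had 40.4, 28.9 and 30.9 in null males, against 204, 173 and 160.3 in wild-type males. CR43361 and CR44708 had the least reduction in females, to 53.2% and 55.0% of the wild-type mean. tRNA:Asp-GTC-2-1 averaged 9.75 ± 8.56 in null females, against 55.5 ± 13.5 in wild-type females (SD, n = 3 each), and as 1 of several copies of this tRNA gene it is uncertain.

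Among the remaining protein-coding members, CG13720 averaged 186 ± 30.0 in null females, against 1163 ± 212 in wild-type females, and CG7227 averaged 311 ± 14.03, against 1104 ± 130.01 (SD, n = 3 each). CG2772, CG12003, CG13215, CG7906, phu and VepD stood between 10.9% and 37.5% of wild type in females and between 12.2% and 40.8% in males. The germline piRNA factor gene tej had 41.1, 42.3 and 49.8 in null females, against 126, 114 and 125 in wild-type females. It had 40.4, 64.3 and 59.7 in null males, against 121, 113 and 124 in wild-type males. The kinase gene niki, CG15020 and CG13062 ranged from 25.9% to 47.5% in females. Ccp84Ag, a cuticle protein gene and the one member among 24 tested cuticle genes outside the excluded names, had 3.42, 14.1 and 18.6 in null females, against 55.1, 95.5 and 75.3 in wild-type females. Of those 24, 4 were called lower and 6 higher in null females, and 3 lower and 2 higher in null males. The shares over all genes were 13.6% lower and 18.2% higher in females, and 5.03% and 4.89% in males. The weakest members, CG17687, CG9822 and CG45062, had wild-type means of 20.4, 20.5 and 21.3. The noncoding RNAs CR44120, CR45320 and CR45174 and the pseudogene CR40354 averaged 23.6 to 80.2 in wild-type libraries, and 35.2%, 25.3%, 16.2% and 31.8% of the female wild-type mean remained in null females.

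The rule did not contrast the sexes, but it read the values of both, so the counts of members that differ between males and females are given as a description. In wild type, 6 of the 53 were called in males against females (11.3%, against 3.37% of all genes), with 4 lower in males (background 2.07%) and 2 higher (background 1.3%). The wild-type mean of at least 20 was taken over both sexes, and CG14645 and CG3906 met it only through females: their means were 19.4 and 11.9 in wild-type males, against 213 and 103 in wild-type females. CG17687 and CG9822, neither of them called, met it only through males, with 24.3 and 25.1, against 16.6 and 15.9 in wild-type females. The sex difference of such genes is thus partly built into the choice, no test is given for them, and nothing is read from the share called. The 4 lower in males were CG31077, CG14645, CG5506 and CG3906, for which no role is given here. CG31077 had 23.3, 27.7 and 70.0 normalized counts in wild-type males, against 499, 346 and 680.0 in wild-type females. The log2 difference was -3.65, SE 0.36, edgeR adjusted p 3.28e-04. CG14645 had 16.5, 10.6 and 31.0 in wild-type males, against 265, 98.5 and 275 in wild-type females. For CG5506 the values were 16.5, 18.7 and 25.7 in wild-type males, against 189, 79.2 and 219 in wild-type females (-2.99, SE 0.37, edgeR adjusted p 0.00141). Even the lowest wild-type female library lay above every wild-type male library in each of these genes. Wild-type males and females had no overlap, in either direction, in 28.3% of the 53 genes. The share was 31.1% of all genes with a wild-type mean of at least 20, so nothing is read from it. CG3906 had 10.7, 5.70 and 19.5 in wild-type males, against 92.1, 81.3 and 136 in wild-type females.

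In null libraries the same 4 genes stood at no more than 14.5 normalized counts in any library. CG31077 had 14.5, 11.8 and 6.63 normalized counts in null males, against 10.3, 7.06 and 5.86 in null females. In males these lie closer to wild type than in females, and the call of CG31077 as lower in null males was lost in 5 of 18 alternatives, 4 of which each left out a library: null male 1, 2 or 3, or wild-type male 3. Its log2 change in males was -1.87 with all libraries and -1.21 without wild-type male library 3. CG5506 had 3.11, 3.21 and 2.21 in null males, against 5.70, 1.01 and 1.95 in null females. Its call in males was lost without null male library 1, null male library 3 or wild-type male library 3, with log2 changes of -2.86, -2.64 and -2.58. No fold is given between null males and females for CG14645 and CG3906. The log2 difference between null males and females was 0.50, SE 0.70, edgeR adjusted p 0.606 for CG31077 and 0.01, SE 0.90, edgeR adjusted p 0.996 for CG5506. Exons of CG14645 overlap Skp2, and those of CG5506 overlap CG7408, both on the opposite strand. In wild type Skp2 differed between males and females by -0.51, SE 0.15, edgeR adjusted p 0.0933 and CG7408 by -0.17, SE 0.11, edgeR adjusted p 0.470.

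**Figure D5:**
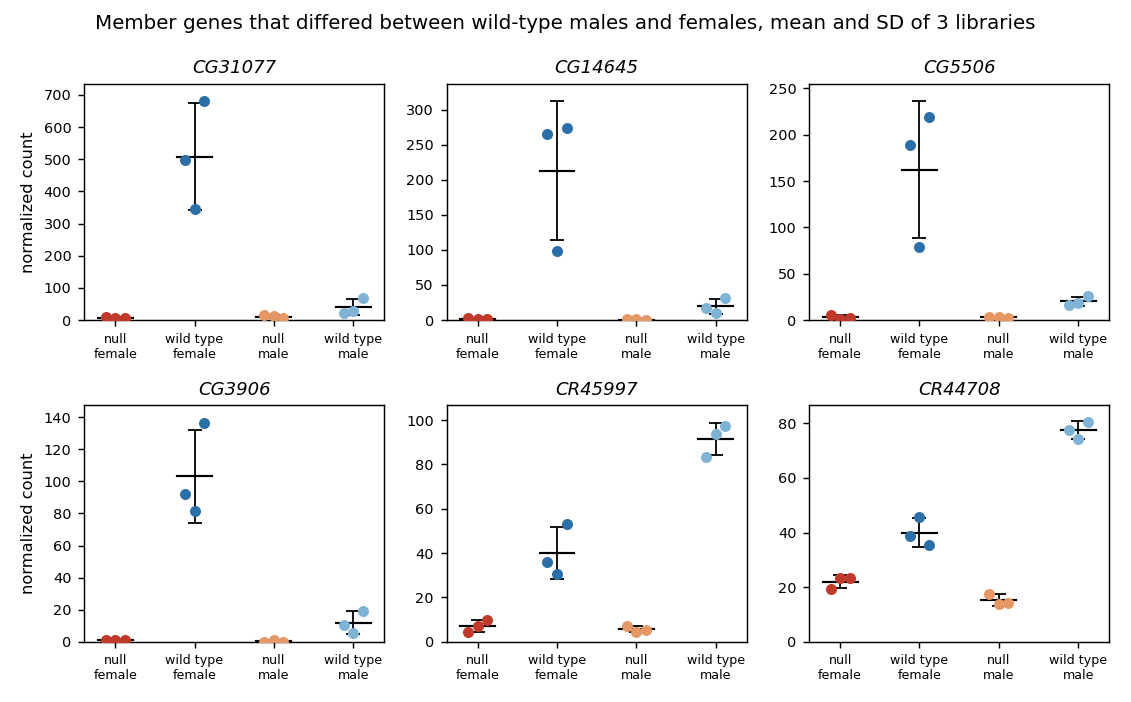
Normalized counts (vertical axis, from 0) of the 6 members called between wild-type males and females, in the 4 groups of 3 libraries; points are libraries, bars the mean and SD. Wild-type females stand highest for CG31077, CG14645, CG5506 and CG3906, wild-type males for CR45997 and CR44708, and both null groups lie lowest in each panel.

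The noncoding RNAs CR45997 and CR44708 were higher in wild-type males. CR45997, on 2R, had 83.3, 93.7 and 97.4 in wild-type males, against 36.1, 30.5 and 53.2 in wild-type females (1.201, SE 0.22, edgeR adjusted p 0.0124). The call was lost on leaving out library 1 or 2 of the wild-type females, or library 2 of the wild-type males, with log2 differences of 1.13, 1.04 and 1.18. CR44708, the 1 member on X, had 77.5, 74.1 and 80.6 in wild-type males, against 38.8, 45.7 and 35.4 in wild-type females (0.95, SE 0.16, edgeR adjusted p 0.00688). In null libraries CR45997 had 7.25, 4.28 and 5.52 in males, against 4.56, 7.06 and 9.76 in females, and CR44708 had 17.6, 13.9 and 14.4 in males, against 19.4, 23.2 and 23.4 in females. Neither passed between the sexes in the null (edgeR adjusted p 0.550 and 0.110).

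Among null libraries, 2 of the 53 were called in males against females (3.77%, against 29.1% of all genes). Cyp6a20 was lower in null males (-0.38, SE 0.12, edgeR adjusted p 0.0347) and ome was higher (0.35, SE 0.11, edgeR adjusted p 0.0361). Each of these calls was lost without null female library 1, null male library 1 or null male library 3, and that of ome also without wild-type female library 3. The values then lay between -0.38 and -0.29 for Cyp6a20 and between 0.24 and 0.36 for ome. The null levels of the members were low, with a median of 30.4 normalized counts, against 818 over all genes with a wild-type mean of at least 20; the part of this in the share called was not tested.

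The null effect in females minus that in males, on the log2 scale, came from the same model. The rule asked for a reduction in both sexes and used these same values, so genes with an effect in 1 sex had been removed, and the difference is a description with nothing read from its counts. Of the 53, 0 were called by edgeR (0.00891% of all genes were), and 6 had an unadjusted p under 0.05 (11.3% of the members and 11.6% of all genes). These were CG31077, CR44708, CG10924, CR45997, CG5506 and CR43361. DESeq2 called 1, CG31077, whose difference was -4.15 (SE 0.80) in edgeR and -4.18 in DESeq2. For CR44708 the difference was 1.501 (SE 0.26), with the null at 55.0% of the wild-type mean in females and 19.8% in males. For CG10924 it was 0.79 (SE 0.21), with 27.8% in females and 16.4% in males. For Hml it was -0.86 (SE 0.45). The female and male effects share no library.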

How the data were processed

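RNA from pooled heads was depleted of ribosomal RNA and sequenced from a stranded kit as paired reads of 75 bases, per the labels' protocols. The authors deposited counts per gene and library, and a table of normalized counts, a signal made by dividing those counts by size factors. Their deposited comparison tables also hold log2 fold changes, with Wald scores, p-values and adjusted p-values. STAR 2.5.2b-0, featureCounts 1.6.0.3, DESeq2 2.11.40.1 and build BDGP6 are named in the submitters' processing notes. The strand setting of the counting is not given in the sources used here. The file of null male library 3 alone notes a read orientation in its name. In the normalized table, 5 gene names had turned into dates and were matched to the deposited counts by their values. Of 17737 gene names, 17647 (99.5%) matched the Ensembl 115 annotation of BDGP6.54.

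From the counts, edgeR 4.0.16 (R 4.3.3, limma 3.58.1) fitted all 4 groups in 1 model after its filter on low counts, with TMM scaling, the quasi-likelihood test and Benjamini-Hochberg adjustment over 11223 genes. An adjusted p under 0.05 counted as called. The SE of a log2 change was its size divided by the square root of F. The fit was tested on simulated counts. Alternatives were DESeq2 1.42.0, other scalings, no filter, only the groups compared, a replicate block and each library left out.

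The members, gene lists and marker lists were chosen with earlier results of these data known. Named genes were the 12 with the widest gap between genotypes, the 6 with the highest wild-type means, those called between the sexes, those nearest the limit, and those in a gene list. Others, such as antr, tej, vis and the neighbours of members, were named after their values had been seen. Same-numbered libraries deviated together in males against females of the null (correlations 0.115 to 0.437), too few values to establish a pairing. The main model held no term for the library number, so it takes no account of a pairing there. The replicate block was run as an alternative. The correlations were -0.226 to 0.415 in wild type, 0.0696 to 0.251 between genotypes in females and -0.322 to 0.316 in males. Nothing in the labels says that the libraries came from separate cultures, so the p-values measure the spread between these libraries, which may be technical. Depth was 23648813 to 30751922 counts a library, which leaves genes of a few counts imprecise.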

Additional observations from a re-analysis of the deposited data

How the results depend on the processing

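With the limit of the rule at 50% of the lowest wild-type library in place of the 66.7% used, 32 genes met it, and with the limit at 75% 84 did. Leaving out 1 library gave 54 to 74 genes, the highest without null male library 2. Without a null library all 53 members remained by construction, since that can only ease the rule. Without a wild-type library a member can be lost only through the wild-type mean, and 50 to 53 remained. In females all 53 were called lower under every alternative run; in males 47 to 53 were, with 47 without null male library 1. Males against females in the null gave 1 call with total counts as the scale, 0 with only the groups compared, and 0 to 3 with 1 library left out. In wild type this count was 5 to 8 over all alternatives. The difference of the null effects gave 1 call by DESeq2 and 0 by edgeR in each alternative run. For CG3906 it ranged from -2.37 to 0.14 with 1 library left out and reversed to 0.14 without null male library 2. Every null male count left is then 0, so that value is set by the prior count of the fit and has no meaning as a change. The summed hemocyte markers, null minus wild type, were -128 CPM in females and -87.7 CPM in males, and reversed to 53.04 CPM and 18.2 CPM without Hml, an alternative chosen after seeing the data. With the replicate block the sex comparison gave 2 calls in the null and 7 in wild type, and the block changed no call count by over 1.5 times. Counting adjacent genes that share no exon with a member, also chosen after seeing the data, gave 18.5% lower in females and 17.4% in males. Depth limits the members with few counts: 3 had a null library at 0, and 2 had at most 3 counts in every null library.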

Other observations

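A mirror of the rule asked that every null library be at least 1.5 times every wild-type library, with a null mean of at least 20. It was met by 116 genes with no names set aside, so the like count of lowered genes is 59. Of these, 47 lay on 2R (40.5%), 21 on 3R (18.1%), 19 on 3L (16.4%), 18 on 2L (15.5%), 10 on X (8.62%) and 1 on the fourth chromosome (0.862%). Arm 2R holds 21.1% of the annotated genes with a wild-type mean of at least 20, a set that differs from genes with such a null mean. Genes raised and genes lowered by this rule thus both had their highest share on 2R, and neither share was tested.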
